A study of Mus musculus with 16 samples.

Results

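Germ cells carry a set of genes for meiosis and for the piRNA pathway that most other tissues keep silent, and 46 such mouse genes were followed here through the histone mark H3K9me3 in the small-intestinal crypt. The genes were taken as a fixed list and each peak was assigned to a gene by the feature name deposited with it, whatever its orientation to that gene. Of 212313 H3K9me3 peaks, 77485 carried a gene name and 162 carried the name of a listed gene. These 162 peaks belonged to 31 of the 46 genes.

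Chromatin came from whole crypt isolates of C57BL/6 mice, immunoprecipitated for H3K9me3 or H3K9me2. WT animals were compared with animals lacking Smarcad1, a SNF2-type chromatin remodeler, in the intestinal epithelium (KO). The conditional allele had loxP sites around Smarcad1 exons and came from a single targeted embryonic stem cell line, and Cre was driven by the Villin promoter, so that cells other than epithelium in the isolate kept the gene. For each mark, 3 libraries were made per genotype, with 1 library of sheared chromatin without antibody (input) beside them. The study calls its replicates biological, but the labels do not tie each library to a separate animal, so p-values measure the spread between these libraries, which may be technical. No measure of Smarcad1 RNA or protein is part of these libraries. In bulk chromatin, fewer marked cells and less mark per cell cannot be told apart.

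H3K9me3 is laid down by SETDB1 and SUV39H enzymes and is found over repeats, zinc finger gene clusters and silent tissue-specific genes, where HP1 proteins bind it. In somatic cells many germ cell genes have CpG-rich promoters that are held silent by DNA methylation, and by complexes whose E2F6 and MGA subunits recognise E2F-type and E-box sites. H3K9me2, the dimethylated form, covers broad silent domains.

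The reads recovered from the deposited H3K9me3 values numbered between 7053741 and 11832423 per ChIP library within peaks, with KO replicate 1 the shallowest. The median peak held 23 to 38 reads per library, so single peaks rest on few reads. H3K9me2 libraries held between 18986927 and 39080740 reads within regions. Of 14 crypt epithelial marker genes 2 carried H3K9me3 peaks, and of 7 immune and stromal marker genes 3 did. None of these 5 genes had a peak over its start. In KO 1 of the 14 crypt marker peaks and 1 of the 3 immune and stromal marker peaks was called lower, with median differences (KO minus WT, log2) of -0.19 and -0.71.

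Peaks over gene starts were read first. A peak covered the annotated gene start in 14 of the 46 genes (30.4%), against 602 of 21951 protein-coding genes (2.74%), a comparison given without a test because the list was chosen with earlier results in view. The 14 genes were Mael, Ddx4, Tdrd1 and Piwil1 of the piRNA pathway, Sycp1, Sycp2 and Stag3 of the synaptonemal complex, axis and cohesin group, Dmc1 and Mei1 of recombination, Dazl, Boll and Rpl10l of RNA binding and translation, and the transcription and chromatin factors Sohlh2 and Brdt. None of the 3 surface and bridge protein genes had one. Any peak at all was found at 67.4% of the listed genes and at 31.1% of protein-coding genes, but the listed genes were also longer, with a median length of 43709 bp against 17403 bp. A separate list of 46 other germ cell genes with a gene model, of median length 16339 bp, had a peak at 30.4% of genes and a start covered at 6 genes (13%).

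**Figure D1:**
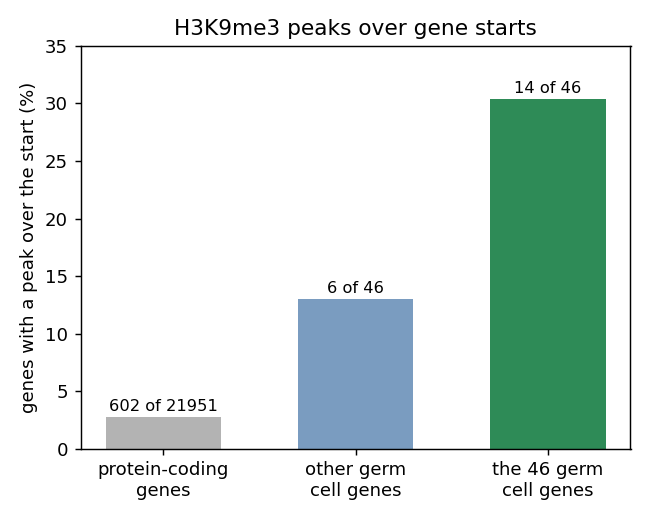
Share of genes (%) with a H3K9me3 peak over the annotated gene start, for all protein-coding genes, for 46 other germ cell genes and for the 46 listed germ cell genes, with the number of genes above each bar. The bars stand at 2.74%, 13% and 30.4%.

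The covered starts were rich in CpG. Across the 14 peaks the median GC content was 52.7% and the median ratio of observed to expected CpG was 0.59, against 40.6% and 0.17 for the 602 peaks over protein-coding gene starts. A CpG ratio of at least 0.4 was found in 13 of the 14 peaks and in 111 of the 602. Repeats took up a median of 15.5% of the 14 peaks and 19.7% of the 602. The 250 bases before the RefSeq start (GRCm38.p6) are shown for the 10 of the 14 genes in which they lie wholly inside the H3K9me3 peak. Letters are 5′ to 3′ on the strand of the gene, and capitals mark an E-box (CACGTG) or an E2F-type site (GGCGGGA or its reverse complement TCCCGCC).
Ddx4: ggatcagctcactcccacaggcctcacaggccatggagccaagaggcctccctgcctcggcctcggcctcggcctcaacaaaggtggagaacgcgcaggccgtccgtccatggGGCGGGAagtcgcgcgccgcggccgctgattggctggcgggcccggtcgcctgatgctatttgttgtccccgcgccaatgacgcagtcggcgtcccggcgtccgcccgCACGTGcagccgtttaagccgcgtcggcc
Mael: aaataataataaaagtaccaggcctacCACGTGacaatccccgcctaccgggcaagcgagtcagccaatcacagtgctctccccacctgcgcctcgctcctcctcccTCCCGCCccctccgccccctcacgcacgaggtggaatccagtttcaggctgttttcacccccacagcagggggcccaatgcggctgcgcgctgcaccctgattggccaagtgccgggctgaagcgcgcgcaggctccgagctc
Boll: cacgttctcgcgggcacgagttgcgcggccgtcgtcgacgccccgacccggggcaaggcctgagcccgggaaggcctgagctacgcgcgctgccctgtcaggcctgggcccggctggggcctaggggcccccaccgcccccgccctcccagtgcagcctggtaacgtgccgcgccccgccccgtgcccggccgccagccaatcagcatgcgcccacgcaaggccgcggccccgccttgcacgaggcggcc
Sycp1: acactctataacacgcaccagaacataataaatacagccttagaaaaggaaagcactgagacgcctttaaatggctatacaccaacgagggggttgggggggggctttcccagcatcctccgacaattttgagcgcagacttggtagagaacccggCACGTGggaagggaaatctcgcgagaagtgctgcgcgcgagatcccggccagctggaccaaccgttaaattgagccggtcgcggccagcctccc
Brdt: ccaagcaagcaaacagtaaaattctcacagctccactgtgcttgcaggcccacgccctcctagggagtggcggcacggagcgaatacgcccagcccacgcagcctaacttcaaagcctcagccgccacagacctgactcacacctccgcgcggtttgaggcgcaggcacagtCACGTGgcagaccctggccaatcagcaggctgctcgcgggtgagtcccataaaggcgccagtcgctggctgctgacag
Tdrd1: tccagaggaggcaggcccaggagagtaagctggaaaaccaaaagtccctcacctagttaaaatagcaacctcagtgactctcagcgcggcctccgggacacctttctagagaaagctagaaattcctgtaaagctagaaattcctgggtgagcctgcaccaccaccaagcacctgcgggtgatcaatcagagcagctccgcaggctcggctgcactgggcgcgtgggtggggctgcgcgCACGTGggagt
Stag3: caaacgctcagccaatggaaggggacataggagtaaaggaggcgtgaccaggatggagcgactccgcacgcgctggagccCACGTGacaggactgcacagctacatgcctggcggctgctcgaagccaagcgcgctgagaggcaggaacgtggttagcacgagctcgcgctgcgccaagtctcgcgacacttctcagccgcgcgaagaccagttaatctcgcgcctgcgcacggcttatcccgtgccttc
Dazl: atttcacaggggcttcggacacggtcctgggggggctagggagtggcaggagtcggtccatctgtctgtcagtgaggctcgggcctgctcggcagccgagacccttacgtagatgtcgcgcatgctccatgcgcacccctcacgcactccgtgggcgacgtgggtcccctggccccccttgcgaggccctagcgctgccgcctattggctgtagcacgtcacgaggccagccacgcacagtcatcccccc
Sycp2: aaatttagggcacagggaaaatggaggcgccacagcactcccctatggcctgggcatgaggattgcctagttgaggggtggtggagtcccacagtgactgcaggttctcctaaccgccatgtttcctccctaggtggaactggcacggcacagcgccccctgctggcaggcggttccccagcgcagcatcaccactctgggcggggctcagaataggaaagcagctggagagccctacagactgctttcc
Rpl10l: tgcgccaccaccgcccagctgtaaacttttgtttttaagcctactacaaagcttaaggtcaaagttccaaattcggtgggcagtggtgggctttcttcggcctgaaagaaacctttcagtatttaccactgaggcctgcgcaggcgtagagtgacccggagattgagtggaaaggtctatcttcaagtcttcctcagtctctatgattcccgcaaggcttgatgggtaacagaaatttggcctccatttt

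The Ddx4 window, at chr13:112652311-112652560 on the minus strand, held 31 CpG dinucleotides and 1 match to each motif. The Mael window, at chr1:166238745-166238994 on the minus strand, held 18 CpG dinucleotides and also 1 match to each. Single E-box matches stood in the windows of Sycp1 (chr3:102936101-102936350, minus), Brdt (chr5:107330944-107331193, plus), Tdrd1 (chr19:56825959-56826208, plus) and Stag3 (chr5:138280259-138280508, plus). The windows of Boll (chr1:55362729-55362978), Dazl (chr17:50293621-50293870), Sycp2 (chr2:178407659-178407908) and Rpl10l (chr12:66284402-66284651), all on the minus strand, held no match. Among the 10 windows the number of CpG dinucleotides ran from 7 at Sycp2 to 33 at Boll.

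Both motifs were counted, on both strands (they can overlap by 1 base at most), in windows from 250 bases before to 50 bases after each RefSeq start, which were at hand for 41 of the 46 genes. CACGTG was found at 17 of the 41 genes (41.5%), against 8.09% of 27025 genes with a window. GGCGGGA was found at 7 of the 41 (17.1%), against 12.7% of all genes. Both motifs contain a CpG, and the median ratio of observed to expected CpG was 0.71 in the windows of listed genes and 0.38 in all windows. Both motifs together stood at Boll, Ddx4, Hormad1, Mael and Rnf212, that is 12.2% of the 41 against 1.63% of all. Within the list, 8 of the 14 genes with a start peak and 9 of the other 27 had an E-box. For Boll the matches lay outside the bases shown. Such matches describe letters in a window and not bound sites.

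The marked starts were compared between genotypes on the deposited scale, log2 reads per peak after the authors matched the distributions of the libraries. None of the 14 start peaks was called at an adjusted p under 0.05 in limma, 1 had an unadjusted p under 0.05, and the WT and KO ranges overlapped at all 14. Over all peaks tested, 2.46% were called lower and 0.252% higher in KO. The median difference, KO minus WT, was 0.075 at the start peaks and 0.028 at all peaks. Leaving out 1 library moved the start peak median between 0.014 (without KO replicate 2) and 0.245 (without WT replicate 1), with 0.162 without KO replicate 1.

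**Figure D2:**
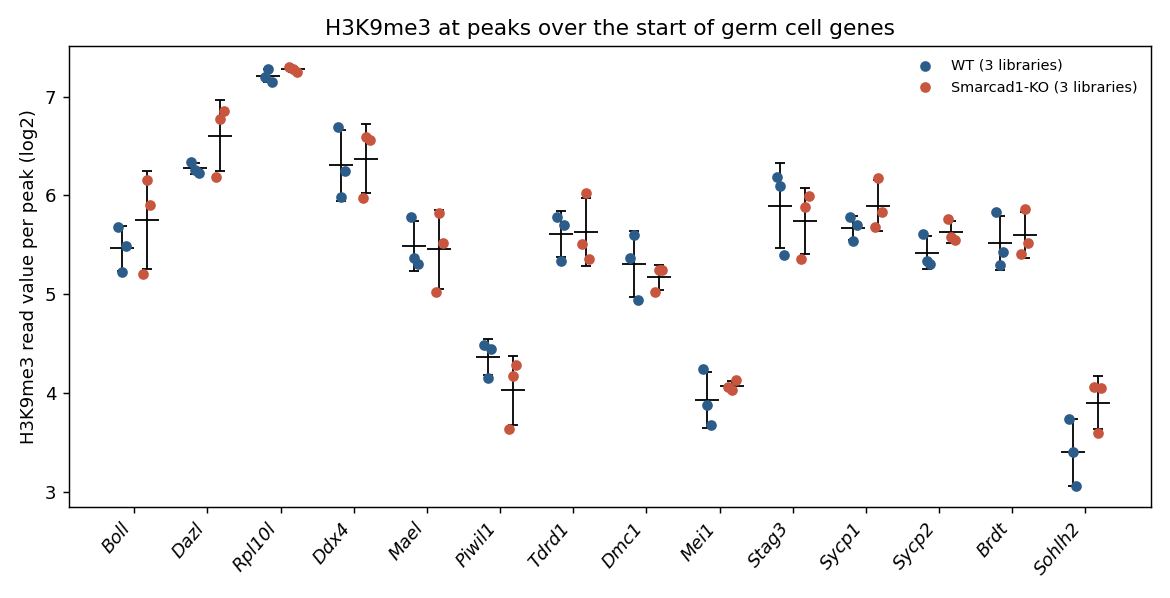
H3K9me3 read value (log2, after the authors' distribution matching) at the 14 peaks over gene starts, with 1 point per library, WT in blue and Smarcad1-KO in red. Horizontal marks and bars give the mean and SD of 3 libraries. The WT and KO points overlap at every gene.

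Among the piRNA pathway genes, Ddx4 encodes the Vasa RNA helicase. Its start peak, chr13:112651501-112653450, had values of 6.69, 5.98 and 6.25 in WT 1 to 3 and 5.97, 6.59 and 6.56 in KO 1 to 3. The difference was 0.06 ± 0.16 (SE, n = 3 and 3, limma adjusted p = 0.945), and the lowest value of each genotype was nearly equal. Mael encodes Maelstrom, a nuage protein needed for transposon silencing. Its peak, chr1:166237351-166239150, had 5.78, 5.37 and 5.31 in WT and 5.02, 5.82 and 5.52 in KO. KO replicate 1 was the lowest of the 6 and KO replicate 2 the highest. Tdrd1 encodes a Tudor domain scaffold of the nuage. Its start peak, chr19:56825851-56827950, had 5.78, 5.34 and 5.70 in WT and 5.51, 6.02 and 5.36 in KO, and the genotypes were interleaved.

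Piwil1 encodes the PIWI protein MIWI, which holds pachytene piRNAs. Its start peak, chr5:128702101-128702850, had 4.49, 4.15 and 4.45 in WT and 3.63, 4.17 and 4.28 in KO. This peak covers the GENCODE gene start, but no transcript start or exon of the GENCODE set used. The RefSeq start lies 33722 bp further into the gene. Peaks also lay before the gene at chr5:128697301-128698350, with 4.30, 4.75 and 4.98 in WT and 4.66, 4.24 and 4.55 in KO, and at chr5:128698801-128699850, with 4.55, 4.45 and 4.32 in WT and 5.08, 4.95 and 4.55 in KO. All 3 are low peaks, and none was called.

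Sycp1 forms the transverse filaments of the synaptonemal complex. Its start peak, chr3:102935101-102936600, had 5.78, 5.54 and 5.70 in WT and 5.68, 6.18 and 5.83 in KO. Sycp2, a component of the lateral elements, had 5.61, 5.34 and 5.31 in WT and 5.76, 5.58 and 5.55 in KO at chr2:178406701-178408050. Both genes had the higher mean in KO, with overlapping groups. Stag3, a subunit of meiotic cohesin, had 6.19, 6.10 and 5.40 in WT and 5.36, 5.88 and 5.99 in KO at chr5:138280201-138281550. In Stag3 the lowest library of each genotype lay well below the other two.

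Dmc1 catalyses strand exchange in meiotic recombination. It had 5.37, 5.60 and 4.94 in WT and 5.02, 5.24 and 5.25 in KO at chr15:79603651-79605300. Mei1, needed for meiotic double-strand breaks, had 4.24, 3.88 and 3.68 in WT and 4.06, 4.03 and 4.13 in KO at chr15:82069501-82070100, which is the GENCODE start and lies 12480 bp from the RefSeq start. The KO libraries fell inside the WT range in both genes.

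Dazl and Boll encode related RNA-binding proteins of the DAZ family. Dazl gave the smallest p of the 14 starts. Its peak, chr17:50293051-50295450, had 6.34, 6.26 and 6.23 in WT and 6.19, 6.77 and 6.86 in KO. KO replicates 2 and 3 stood above all WT libraries and KO replicate 1 below them. The difference was 0.33 ± 0.15 (SE, n = 3 and 3, limma adjusted p = 0.364), and without KO replicate 1 it was 0.54 (limma adjusted p = 0.0288), past the threshold. The Boll start peak, chr1:55362151-55363500, had 5.68, 5.22 and 5.49 in WT against 5.20, 6.16 and 5.90 in KO. The same library was again the lowest of its genotype. Over the 14 start peaks KO replicate 1 was below both other KO libraries at 9, with a median gap to their mean of -0.30, against -0.04 at the 5456 peaks of at least 50% GC and 0.01 at all peaks. The part of this library in the start peak values was not tested.

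Rpl10l is a retrogene for a ribosomal protein used in the testis. Its start peak, chr12:66282451-66288450, was the widest of the 14, with 7.20, 7.28 and 7.15 in WT and 7.30, 7.28 and 7.25 in KO. A second peak before the gene, chr12:66288751-66290700, had 5.52, 5.54 and 5.37 in WT and 5.91, 5.68 and 5.55 in KO. At the second peak all KO values lay above all WT values, but the difference of 0.23 ± 0.18 (SE, limma adjusted p = 0.717) was not called. Meioc, a partner of the RNA helicase YTHDC2 in meiotic entry, had a peak at chr11:102664501-102666600 that missed the GENCODE gene start and covered an alternative transcript start. Meioc had 6.45, 6.16 and 6.41 in WT and 5.94, 6.69 and 6.63 in KO, again with KO replicate 1 lowest.

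Sohlh1 and Sohlh2 encode bHLH factors of early germ cell differentiation. Sohlh2 had 3.74, 3.40 and 3.06 in WT and 4.06, 3.59 and 4.05 in KO over its start at chr3:55182001-55182450, a narrow peak of 10 to 16 reads per library. Sohlh1 had a peak before the gene at chr2:25849051-25850100, with 5.02, 4.81 and 4.76 in WT and 4.57, 4.69 and 4.05 in KO. There all KO values lay below all WT values, with a difference of -0.43 ± 0.25 (SE, limma adjusted p = 0.577). Brdt, a testis bromodomain protein, had 5.83, 5.30 and 5.43 in WT and 5.41, 5.86 and 5.52 in KO at chr5:107330101-107331900. With the 14 start peaks and the 4 peaks before a gene, 18 peaks were promoter-side, and none of them was called in either direction. Of the 602 peaks over protein-coding gene starts, 1.99% were called lower and 0.5% higher. With shares this low, 18 peaks without a call cannot show that these promoters differ from others.

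Calls between the genotypes were found away from the starts. Of all 162 peaks, 7 were called lower in KO and 0 higher in limma (4.32% lower, against 2.46% of all peaks), and all 7 lay within a gene but off its start. Peaks with a gene name were called lower at 3.92% and peaks at protein-coding genes at 4.09%. Without Mei4, which held 96 peaks and no call, the share of the list was 10.61% (7 of 66 peaks). Leaving Mei4 out was chosen after its peaks were seen, so the share rises by that choice. The values outside Mei4 given below rest on the same choice. Of the crypt and of the immune and stromal marker peaks 1 each was called lower, as given above, and the part of cell composition in these values was not tested. At an unadjusted p under 0.05 18 peaks were lower and 7 higher (11.11% and 4.32%, against 6.75% and 4.07% of all peaks). The KO range was wholly below the WT range at 23 peaks and wholly above it at 12, where the same held for 8.21% and 7.3% of all peaks. Outside Mei4, 20 of 66 peaks had all KO values below WT and 2 had them above, and the median difference was -0.199, against -0.012 with Mei4 included. The 52 peaks off the start and outside Mei4 had a median of -0.274. Without limma's trend of variance with level, 0 of the 162 and 87 of all peaks were called lower, while count tests on recovered reads called 9 (edgeR) and 4 (DESeq2) of the 162 lower. Without WT replicate 1, 3 peaks, at Boll and Hsf2bp, were called. The 4 peaks called in DESeq2 were at Boll, Tdrd9 and Hsf2bp, so Mov10l1, Stk31 and Zcwpw1 were not called there.

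**Figure D3:**
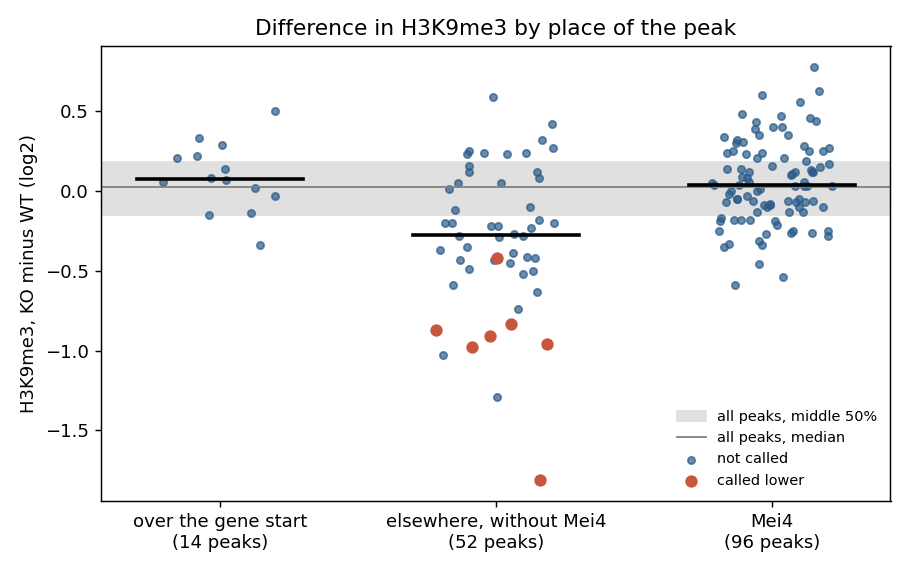
Difference in H3K9me3 (KO minus WT, log2) for the 162 peaks, split into 14 over a gene start, 52 elsewhere outside Mei4 and 96 at Mei4. Red points were called lower, black lines are medians, and the grey band and line give the middle 50% and the median of all peaks. The called points all fall in the second class.

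In the piRNA pathway 3 peaks of 33 (9.09%) were called lower, against 2.46% of all peaks, 1 each at Tdrd9, Mov10l1 and Stk31. Without WT replicate 1 none of the 3 was called (limma adjusted p = 0.0822, 0.0661 and 0.101). Tdrd9 encodes a helicase with a Tudor domain. Its called peak, chr12:112018351-112023900, overlaps an exon and had 8.26, 7.96 and 8.11 in WT against 7.69, 7.70 and 7.67 in KO. The groups did not overlap and the KO libraries were nearly equal, with a difference of -0.42 ± 0.09 (SE, n = 3 and 3, limma adjusted p = 0.00421). All 6 Tdrd9 peaks, spread from chr12:111995251 to the end of the gene, had all KO values below all WT values. Their differences ran from -1.29 to -0.41, though the other 5 were not called. Such separation was found at 8.21% of all peaks, and the 6 peaks share 1 locus and are not replicates. No peak covered the Tdrd9 start.

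Mov10l1 encodes the helicase that feeds precursors into piRNA production. Its called peak, chr15:89051401-89052000, is intronic and had 4.80, 4.52 and 4.05 in WT and 2.25, 3.48 and 2.21 in KO. This was the largest difference among the 162 peaks, -1.81 ± 0.39 (SE, limma adjusted p = 0.00224), but from 19 to 31 reads in WT and 3 to 13 in KO. Stk31 encodes a Tudor domain protein with a kinase-like region. Its peak, chr6:49416151-49417500, overlaps an exon and had 5.90, 5.34 and 5.65 in WT and 4.89, 4.99 and 4.13 in KO. KO replicate 3 was the lowest, the groups did not overlap, and the difference was -0.96 ± 0.22 (SE, limma adjusted p = 0.00481). Stk31 was not called in DESeq2 on recovered reads (adjusted p = 0.0795). Piwil2, which encodes the PIWI protein MILI, stood just outside the threshold with a peak after its gene (-0.74, adjusted p = 0.0556). The WT and KO ranges overlapped at that peak.

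Among recombination genes 2 of 107 peaks (1.87%) were called lower, against 2.46% of all peaks. Hsf2bp encodes a testis protein that binds BRCA2. Its intronic peak, chr17:31954651-31956900, had 6.33, 6.43 and 6.12 in WT and 5.26, 5.61 and 5.39 in KO, a wide gap beside the spread in each group. The difference was -0.87 ± 0.16 (SE, n = 3 and 3, limma adjusted p = 0.000327). Zcwpw1 encodes a reader of the histone marks set by PRDM9 at recombination hotspots. Its intronic peak, chr5:137815051-137816250, had 5.27, 4.91 and 5.57 in WT against 4.48, 4.17 and 4.61 in KO. The groups were separated by less than at Hsf2bp, with -0.83 ± 0.23 (SE, limma adjusted p = 0.0349). The Zcwpw1 call was lost in 4 of the 6 fits that left out 1 library, and in DESeq2 on recovered reads (adjusted p = 0.249).

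Boll was the sole gene with more than 1 call, and both lay in introns far from its start. The peak at chr1:55295851-55299000 had 7.19, 6.95 and 7.03 in WT against 6.07, 6.26 and 5.90 in KO. The peak at chr1:55317451-55320750 had 6.53, 6.48 and 6.59 in WT and 5.51, 5.82 and 5.55 in KO. At both, each genotype was tight and the groups were far apart, with differences of -0.98 ± 0.13 and -0.91 ± 0.15 (SE, n = 3 and 3, limma adjusted p = 1.04e-06 and 4.6e-05). The Boll start peak described above differed by 0.29 ± 0.19 (SE, adjusted p = 0.664) and was not called. The contrast between start and body was not tested.

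**Figure D4:**
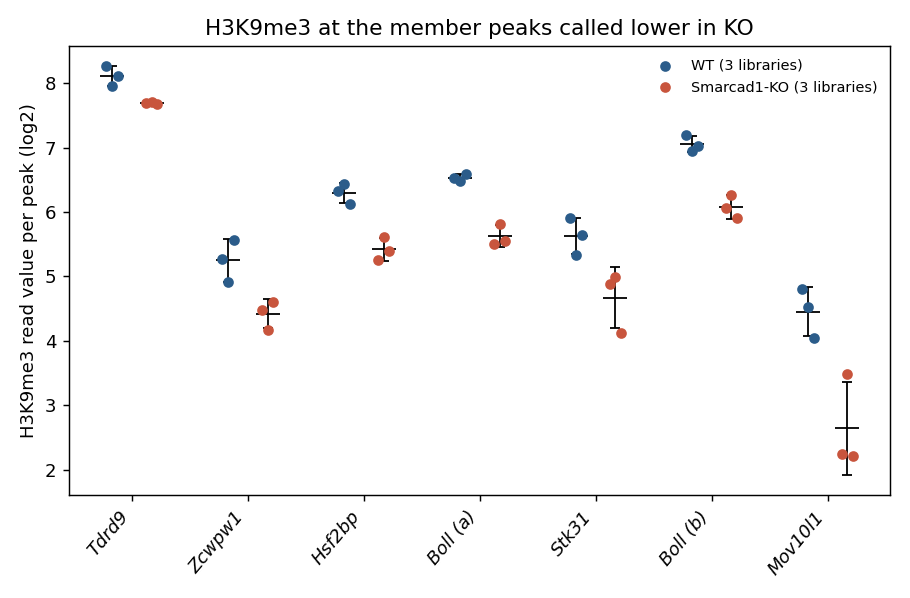
H3K9me3 read value (log2) at the 7 peaks called lower in KO, with 1 point per library, WT in blue and Smarcad1-KO in red, and the mean and SD of 3 libraries. Boll (a) is the peak at 55317451 and Boll (b) that at 55295851. No KO point reaches the WT range at any of the 7.

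The called peaks were rich in repeats, with repeats over 11.8% to 98.7% of their length and a median of 60%, against 48.9% in the 5226 peaks called lower over the genome and 35.2% in all peaks. The Boll peak at 55317451 was the most repetitive and the Mov10l1 peak the least. The study kept reads above a mapping quality cutoff and removed duplicates, and the part of mapping in these values was not tested.

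The synaptonemal complex, axis and cohesin group and the transcription and chromatin factors held no call, in 8 and 3 peaks. The 4 further Sycp1 peaks lay in the gene body, and Hormad2, a chromosome axis protein, had 1 peak with all KO values below WT (-0.22, adjusted p = 0.501). Among surface and bridge proteins the 3 peaks had differences of -1.03 to -0.37 and none was called. Tex14, which forms the bridges between dividing germ cells, held the lowest of them at an adjusted p of 0.0562. Prdm9, which encodes the methyltransferase that places recombination hotspots, had 3 peaks that all had the higher mean in KO (0.25 to 0.59), none of them called, with its peak at 15541951 called higher once KO replicate 1 was left out (0.59, adjusted p = 0.0315). With all libraries that peak had 5.83, 5.88 and 5.97 in WT and 5.68, 6.44 and 6.52 in KO, a difference of 0.32 (adjusted p = 0.506).

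Mei4 and Piwil1 carried many peaks and no call. Mei4, needed for the formation of meiotic breaks, spans 342338 bp on chromosome 9 and held 96 peaks with differences from -0.59 to 0.78 and a median of 0.032. At Mei4 3 peaks had all KO values below WT and 10 had them above (3.1% and 10.4%, against 8.2% and 7.3% of all peaks). The peaks of 1 gene share a locus and are not replicates. The 10 Piwil1 peaks had differences from -0.34 to 0.42 and no peak with separated groups.

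The remaining 15 genes had no H3K9me3 peak under their names. They were Tdrkh, Fkbp6 and Tex15 of the piRNA pathway, Sycp3, Syce1, Rec8, Smc1b and Hormad1 of the synaptonemal complex, axis and cohesin group, Spo11, Meiob and Rnf212 of recombination, and Ddx25, Stra8, Nobox and Dpep3. Stra8 starts the meiotic programme and Spo11 cuts the DNA, so central genes of the pathway were among those without a peak. Peaks were called on pooled libraries, and the lack of a peak does not exclude a low level of the mark.

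H3K9me3 was also set against input, as the log2 ratio of a peak's share of the reads within all peaks in each ChIP library to its share in the input of the same genotype. This scaling puts the typical peak near 0, so the ratio ranks peaks against each other and is no absolute enrichment over input. The 14 start peaks stood at 0.30 ± 0.18 in WT and 0.12 ± 0.16 in KO (mean ± SD of 3 library medians), against -0.06 ± 0.01 and -0.02 ± 0.02 for all peaks. Without WT replicate 1 the WT value was 0.21, and the KO value was 0.21 without KO replicate 1 and 0.07 without either of the others. In WT 9 of the 14 lay above the 75 percentile of all peaks. Ddx4 was the highest in WT, at 1.08 ± 0.35 and with 0.72 ± 0.34 in KO, where the input was higher in KO by 0.45 and the ChIP values differed by 0.06 (log2). At 11 of the 14 start peaks the KO input was above the WT input, with a median of 0.28 and a range from -1.05 at Piwil1 to 0.72 at Sohlh2. Piwil1 had the lowest ratio in WT, at -0.47 ± 0.17. In WT 4 start peaks had a ratio below 0, at Sycp1, Tdrd1, Mei1 and Piwil1.

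The highest ratio of the list was at the called Tdrd9 peak, 1.6 ± 0.18 in WT and 0.85 ± 0.02 in KO, at the 99.2 percentile of all peaks in WT. In the other role groups the leaders in WT were a 300 bp Mei4 peak at 82164301 (1.39 ± 0.41), Meioc (1.16 ± 0.14) and Sohlh2 (0.54 ± 0.28). The others were the Sycp1 body peak at 102900601 (0.82 ± 0.22) and Tex101, a surface glycoprotein of germ cells (0.80 ± 0.49). The Mei4 value rests on 8 to 15 reads per ChIP library and 2 to 3 input reads. In WT Tex101 rests on 22, 10 and 12 ChIP reads and 6 input reads, and Sohlh2 also on 6 input reads. The 7 called peaks were chosen on their lower ChIP values in KO, so their lower ratios in KO are a description. Hsf2bp went from 1.20 ± 0.16 to -0.38 ± 0.15 and Zcwpw1 from 1.00 ± 0.32 to -0.62 ± 0.23, but the inputs differed there by 0.74 and 0.83 (log2, KO above WT), while the ChIP values alone differed by -0.87 and -0.83. With 1 input per genotype these ratios have no test.

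**Figure D5:**
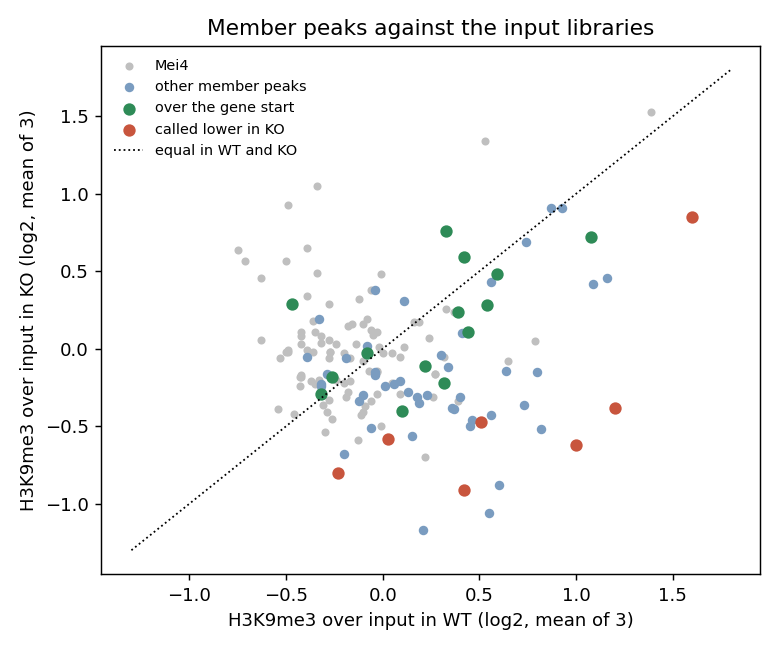
H3K9me3 over input (log2, mean of 3 libraries) in KO against WT for the 162 peaks, with Mei4 in grey, start peaks in green, peaks called lower in red and the others in blue. The dotted line marks equal ratios. The 7 red points, chosen on their lower ChIP values in KO, lie below it, and the green points lie on both sides.

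Other germ cell genes outside the list had 25 peaks at 14 genes, with 2 called lower (8%) and 1 higher (4%), against 2.46% and 0.252% of all peaks. Syce3, a synaptonemal complex protein, had a peak over its start with 7.37, 7.29 and 7.03 in WT and 5.97, 6.46 and 6.52 in KO (-0.91 ± 0.13 SE, limma adjusted p = 4.98e-06). A Zbtb16 peak, at the gene of a spermatogonial zinc finger factor, also fell (-0.89 ± 0.22 SE, limma adjusted p = 0.0102), though not in DESeq2 on recovered reads (adjusted p = 0.173). A Tdrd6 peak rose, with 6.78, 6.26 and 6.46 in WT and 7.23, 7.66 and 7.30 in KO (0.90 ± 0.13 SE, limma adjusted p = 3.14e-06). The Syce3 start, with a CpG ratio of 0.23, differed in sequence from most of the 14 listed starts. The median ratio at the 6 covered starts of these other genes, Syce3 included, was 0.63. A separate peak over the Tdrd6 start, with a ratio of 0.61, differed by 0.82 (limma adjusted p = 0.0784) and was not called. A link between CpG content and the differences was not tested.

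H3K9me2 was read at the same genes. Of 47065 regions, 29 named 11 of the 46 genes, with 8 each at Sycp1 and Mei4, and 15 of the 29 overlapped a H3K9me3 peak of the list. None of the 29 was called in edgeR and 0 had an unadjusted p under 0.05, where 0.00212% of all regions were called lower (1 region) and 0% higher, and 1470 had an unadjusted p under 0.05. Differences ran from -0.26 to 0.46. The smallest p in each direction fell to a region at Stk31, chr6:49472701-49483950 (-0.15 ± 0.08 SE, edgeR adjusted p = 1), and to one at Sycp1, chr3:102906451-102906900 (0.46 ± 0.29 SE, edgeR adjusted p = 1). The Stk31 region had 547, 389 and 367 reads in WT and 648, 298 and 658 in KO, and the Sycp1 region 25, 16 and 20 in WT and 39, 25 and 50 in KO, before scaling for depth. KO replicates 1 and 3 were the deepest H3K9me2 libraries. At Mael a narrow H3K9me2 region, chr1:166238251-166239000, covered the gene start together with the H3K9me3 peak, with 51, 26 and 25 reads in WT, 47, 32 and 64 in KO and 14 in each input. Its difference was 0.07 ± 0.26 (SE, edgeR adjusted p = 1). A wide H3K9me2 region at Piwil1, chr5:128665201-128719500, also covered the GENCODE gene start and overlapped 9 listed H3K9me3 peaks. Its difference in edgeR was -0.02 ± 0.09 (SE). Set against input, the 29 regions stood at 0.06 ± 0.06 (WT) and 0.01 ± 0.01 (KO, both the SD of 3 library medians), close to the 0.00 and 0.01 of all regions.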

How the data were processed

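ChIP-seq of whole crypt isolates was analysed in 16 libraries, grouped by their titles. Per the labels and the methods of the study, reads were trimmed (Trim Galore 0.4.4), mapped to GRCm38 (Bowtie2 2.3.2), and peaks were called by MACS for each mark on pooled libraries. For H3K9me3 the deposited table gives log2 read values that the authors had matched in distribution between ChIP libraries, which removes any genome-wide shift. For H3K9me2 the deposited signal is a mean of reads over the peaks of each region, and multiplying by the number of peaks returned whole reads. A shorter table deposited by the authors holds read counts of the H3K9me2 peaks past their own test. Columns of the authors' own tests, and 8 standard deviation columns, were left out.

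The list of genes, role groups and motifs were chosen with earlier results of these data known. H3K9me3 was tested with limma 3.58.1 (trend, two-sided, Benjamini-Hochberg over all peaks, threshold 0.05) and H3K9me2 with edgeR 4.0.16 (quasi-likelihood, TMM). DESeq2 1.42.0 was an alternative. H3K9me3 reads were recovered from the ranks of distinct values (99.5% of values within 0.002 on the log2 scale) for ratios to input, scaled to the reads within peaks, with 1 read added. In 1388 peaks a library was extrapolated, among them 1 listed peak, at Tdrd9. Both fits were tested on simulated data. Gene starts came from GENCODE vM21. The deposited orientation gives the place of the gene relative to the peak, since all 8039 peaks marked upstream lay after the gene, so sides were set from coordinates. A peak was promoter-side when it covered the gene start or lay before the gene. Starts, exons and promoter letters use the build of the files.

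Named with values were called peaks, promoter-side peaks, the highest WT ratio of each role group, the 3 genes with most peaks, and the H3K9me2 regions of smallest p. Of other germ cell genes, called peaks were named. Further peaks just outside the threshold, and those at Prdm9, Hormad2, Meioc and the Tdrd6 start, were named after their values were seen. The same holds for the Mael and Piwil1 H3K9me2 regions. Libraries with equal replicate numbers did not deviate together for H3K9me3 (correlations of -0.01 to 0.01), and for H3K9me2 not in every pair (0.02 to 0.18), and no label ties the numbers, so no block was used. No 2 libraries agreed within sampling noise.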

Additional observations from a re-analysis of the deposited data

How the results depend on the processing

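Called lower among the 162 H3K9me3 peaks of the listed genes were 7 in the test reported, 9 with edgeR and 4 with DESeq2 on recovered reads, 0 in limma without trend, and 3 to 7 when 1 library was left out. Called higher were 0, and 0 to 2 with 1 library left out (2 without KO replicate 1), of which 0 to 1 over a gene start. At other germ cell genes DESeq2, limma without trend and an adjusted p under 0.01 gave 1, 0 and 1 lower, edgeR and limma without trend 2 and 0 higher, and leaving out 1 library 1 to 2 lower and 1 to 2 higher. Of all peaks, DESeq2, limma without trend and the stricter threshold called 2272, 87 and 3363 lower and 126, 16 and 257 higher, and leaving out 1 library 3242 to 4863 lower and 352 to 535 higher. The median difference was -0.199 without Mei4, an alternative chosen after seeing the data. With 5 reads added, the ratio to input in WT was -0.08 at listed peaks and -0.09 at all peaks. With at least 10 input reads it was -0.09 in WT and -0.05 in KO at all peaks. For H3K9me2, all regions called lower were 3 with DESeq2 and 0 to 2 with 1 library left out.

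With the replicate block, 8 listed H3K9me3 peaks were called lower and 0 higher, and over all H3K9me2 regions 15 lower and 2 higher, none of them listed. The numbers were not taken to pair the libraries, and the block changed no other call by over 1.5 times.

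Of 26 named peaks, 7 changed sign in 16 of the refits, and none of these values passed its threshold. Mael had 0.01 with DESeq2 and 0.03 with edgeR. Leaving out 1 library in turn gave -0.21 to 0.18 at Mael, -0.05 to 0.23 at Brdt, -0.40 to 0.04 at Stag3, -0.05 to 0.32 at Meioc, -0.10 to 0.26 at Ddx4, -0.32 to 0.01 at Dmc1, and -0.17 to 0.16 at Tdrd1. Tdrd9, Mov10l1, Stk31 and Zcwpw1 were not called without WT replicate 1 (adjusted p = 0.0822, 0.0661, 0.101 and 0.141), with differences of -0.34, -1.64, -0.83 and -0.82, nor Stk31 without KO replicate 3 (0.0949). The cause of these changes was not tested. Start peaks held 9 to 183 reads per library, which limits what a difference at a single start can show.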
